A study of Homo sapiens with 9 samples.

Results

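The nuclear genes for the subunits of the respiratory chain and ATP synthase were described in glioblastoma cells that carried a mutant isocitrate dehydrogenase 1 (IDH1). Members were all protein-coding genes outside the mitochondrial genome whose symbols begin with NDUFA, NDUFB, NDUFC, NDUFS or NDUFV and a digit, with UQCR, with COX and a digit from 4 to 8, or with ATP5, together with SDHA, SDHB, SDHC and SDHD. The rule used names only, no measured value, and found 90 of the 58735 genes in the count table. They comprised 36 genes of complex I, 4 of complex II, 8 of complex III, 17 of complex IV and 17 of complex V. The other 8 were listed apart: NDUFA4L2 as a paralog of a subunit, COX7A2L as a factor that joins complexes, ATP5IF1 as an inhibitor, ATP5S as a coupling factor, and 4 copies or readthrough genes (UQCRHL, ATP5MGL, ATP5MF-PTCD1 and NDUFC2-KCTD14).

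RNA was sequenced from U87 cells, an established human glioblastoma line, in 3 groups of 3 libraries each. All groups were stably expressing cells by their labels: PCDH carried the vector, IDH1mt carried IDH1 with the R132H mutation, and C269S carried that mutant with a serine in place of a cysteine. The design text asks about the attachment of a fatty acid to the mutant enzyme by itself. Nothing in the labels tells whether a group's replicates were separate cultures or more than 1 selected line. P-values therefore reflect only the scatter among replicates, which may be technical, and construct and selected line cannot be told apart.

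Complex I oxidises NADH, complex II oxidises succinate, complex III passes electrons to cytochrome c, and complex IV passes them to oxygen, while complex V makes ATP from the proton gradient. Complexes I, III, IV and V also contain subunits made from the mitochondrial genome, so their assembly draws on both genomes. Several complex IV subunits exist as a widely expressed form and a form typical of muscle or testis, and COX4I2 and NDUFA4L2 are known as forms raised under low oxygen in some cell types.

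Total counts per library lay between 19108925 and 24803711. IDH1 was at 102 to 118 CPM (reads per gene scaled to library size with TMM factors) in PCDH, at 660 to 693 in IDH1mt and at 718 to 773 in C269S, so all 6 libraries labelled with a transgene lay above PCDH. Gene counts cannot tell the mutants from each other or from the cells' own IDH1. PCDH replicate 3 stood apart: over all genes its counts differed from the other 2 PCDH libraries by a chi-square per degree of freedom of 9.94 and 10.7, against 3.64 to 6.17 for the other replicate pairs. Of the 82 members tested, 59 were lower in this library than the mean of the other 2 PCDH libraries. Results are therefore given with it and, where they change, without it. Of 8 astroglial and glioma markers, AQP4 was at 0 in all libraries and SOX2 did not exceed 0.133 CPM. S100B (0.0842 to 0.322 CPM) and GFAP (2.84 to 4.34) were also low. OLIG2 was at 5.84 to 11.65 CPM, SLC1A3 at 40.1 to 46.6 and NES at 56.6 to 74.6. VIM, between 2656 and 3129 CPM, made up nearly all of the sum of the 8. This sum was 3005 to 3251 CPM in PCDH, 2790 to 2859 in IDH1mt and 2784 to 2854 in C269S.

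The filter on low counts kept 82 of the 90 members. The 8 that did not pass were COX4I2, COX6A2, COX7A1, COX7B2, COX8C, ATP5MF-PTCD1, ATP5MGL and NDUFC2-KCTD14. The member genes held 0.567 to 0.623% of all counts. This share was 0.601 ± 0.0203% (SD, n = 3) in PCDH, 0.589 ± 0.0154% in IDH1mt and 0.581 ± 0.0130% in C269S, and the 3 groups overlapped. Within a group, the median coefficient of variation of a tested member was 6.78%, and 71 of the 82 were at 10 CPM or more in every library.

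Levels were compared between genes on the deposited FPKM scale, which divides by a length per gene. For all 90 members this length equals the bases covered by any annotated exon in GENCODE 29, not those of 1 transcript. Orders and medians of levels therefore depend on these lengths. In PCDH cells the median FPKM was 12.8 for the 36 tested genes of complex I, 17.9 for complex II, 36.9 for complex III, 38.0 for the 12 tested genes of complex IV and 25.5 for complex V. CYC1, a complex III subunit outside the naming rule, was at 69.8 ± 7.89 FPKM in PCDH and is not in these medians. Were it counted, the median of complex III would lie above that of complex IV. The median over all 82 was 22.2 FPKM, against 4.62 FPKM for all 13361 tested protein-coding genes, and 69 of the 82 lay above the latter. The most abundant was ATP5F1B, the catalytic beta subunit of ATP synthase, at 264 ± 13.2 FPKM (SD, n = 3). NDUFS5, a small accessory subunit of complex I, followed at 143 ± 6.52 FPKM. COX8A, a small subunit of complex IV, ranged from 96.7 to 166 FPKM, so it could not be ordered against NDUFS5. UQCRH, the hinge protein of complex III, led its complex at 83.8 ± 7.91 FPKM. In complex II the flavoprotein SDHA (28.7 ± 0.419 FPKM) and the iron-sulfur subunit SDHB (28.3 ± 1.78 FPKM) did not differ beyond their spread. On this scale both were above the membrane anchors SDHD (7.62 ± 1.02 FPKM) and SDHC (6.04 ± 0.127 FPKM). By CPM, which does not divide by length, SDHC (86.3) lay above SDHB (70.2) in PCDH. Their order thus depends on their lengths, 14160 and 2462 bases.

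**Figure D1:**
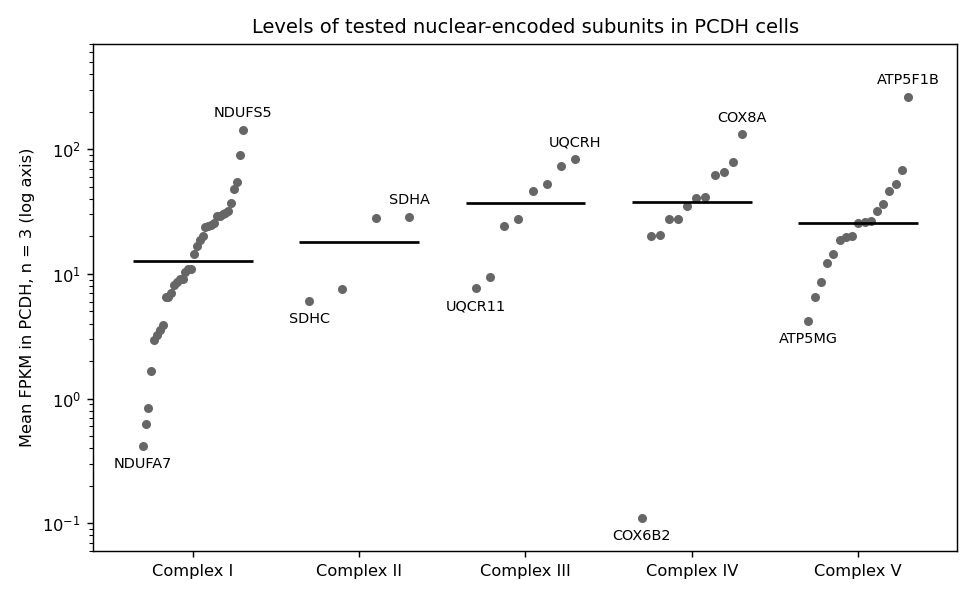
Mean FPKM of each tested subunit in the 3 PCDH libraries (points, log axis), ordered within each complex, with the median of the complex as a bar. Among the genes drawn, complex IV has the highest median, 38.0 FPKM, and the lowest gene, COX6B2. ATP5F1B lies above all others at 264 FPKM. CYC1 of complex III is outside the naming rule and not drawn, and the order of complexes III and IV depends on it.

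Low FPKM values were found for 4 subunits of complex I: NDUFA7 (0.413 in PCDH), NDUFV2 (0.624), NDUFA13 (0.838) and NDUFA9 (1.66). NDUFV2 carries an iron-sulfur cluster of the NADH-oxidising arm and NDUFA13 is an accessory subunit. Of their coding bases, 78.3%, 84.7%, 55.2% and 67.9%, in that order, also belong to another annotated gene on the same strand. Reads from such bases may not be assigned to either gene, depending on counting settings that are not given in the sources used here, so the low levels and this overlap cannot be told apart. Over all tested members, the 12 that share 50% or more of their coding bases had a median of 3.69 FPKM over the 9 libraries. The other 70 had a median of 23.6 FPKM. This limit of 50% was chosen after the data were seen. COX8A and COX6A1 were exceptions, with 55.1% and 53.5% shared and means of 134 and 34.7 FPKM.

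In IDH1mt against PCDH, 3 of the 82 tested members were called by edgeR's quasi-likelihood test at an adjusted p under 0.05. COX7B and ATP5F1A were higher and NDUFS5 was lower, each by less than 1.5-fold, and 79 were not called. Among all 16874 genes tested, 7.18% were called higher and 6.9% lower, beside 2.44% and 1.22% of the members. The difference between these shares was not tested. An unadjusted p under 0.05 was reached by 16 members (19.5%) and by 26.1% of all genes. The log2 fold changes lay on both sides of 0, with 41 above and 41 below, and their median was 0.01 against -0.01 for all genes tested.

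COX7B, a small subunit of complex IV encoded on chromosome X (77899438 to 77907373, plus strand, GRCh38), was measured at 60.2, 61.0 and 68.6 CPM in PCDH. It was at 80.5, 74.6 and 81.4 CPM in IDH1mt and at 65.2, 70.6 and 66.3 CPM in C269S. All IDH1mt libraries lay above all libraries of the other 2 groups. The log2 fold change of IDH1mt against PCDH was 0.32 ± 0.07 (SE, edgeR adjusted p = 0.00216), and the call held when any library was left out.

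ATP5F1A encodes the alpha subunit of the ATP synthase head and lies on chromosome 18 (46080248 to 46104334, minus strand). It was at 333, 344 and 376 CPM in PCDH, at 391, 393 and 401 in IDH1mt and at 370, 368 and 375 in C269S. The groups PCDH and IDH1mt did not overlap, though PCDH replicate 3 came close. Its log2 fold change in IDH1mt was 0.17 ± 0.05 (SE, edgeR adjusted p = 0.0287), and the call was lost without any 1 of PCDH replicates 1 and 2 or IDH1mt replicates 1, 2 and 3, and with library size as the only scaling, with no filter on low counts and with limma on FPKM. Its partner in the head, ATP5F1B, was at 592.5, 614 and 651 CPM in PCDH and at 665, 657 and 661 CPM in IDH1mt, also without overlap, and was not called.

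NDUFS5, on chromosome 1 (39026318 to 39034636, plus strand), was at 76.4, 82.9 and 77.5 CPM in PCDH. In IDH1mt it was at 66.6, 60.8 and 65.3 CPM, and in C269S at 62.3, 64.8 and 75.0 CPM. Both mutant groups lay below PCDH without overlap, C269S replicate 3 being close to it. The fall in IDH1mt was -0.30 ± 0.07 on the log2 scale (SE, edgeR adjusted p = 0.00542), and the call was lost without IDH1mt replicate 2. In C269S against PCDH the log2 fold change was -0.23 ± 0.07 (edgeR adjusted p = 0.136). NDUFS5 has 6 named pseudogenes, ATP5F1A has 7 and COX7B has 1, and reads may be shared between such copies and their gene.

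**Figure D2:**
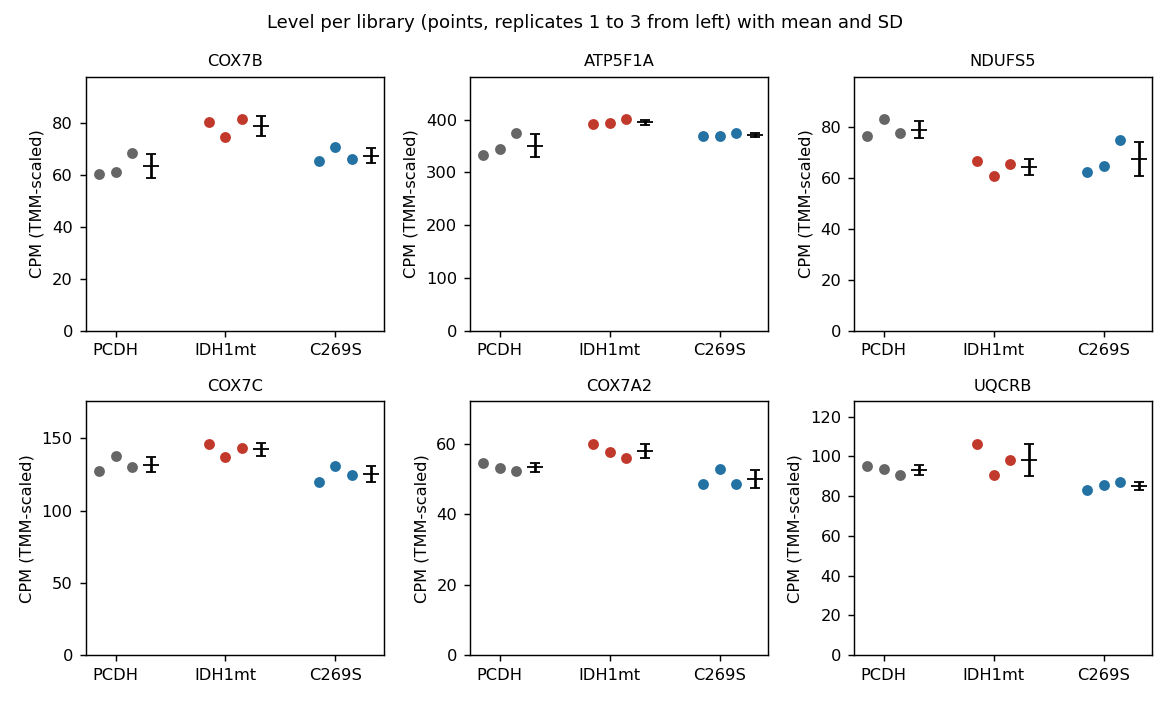
TMM-scaled CPM in each of the 9 libraries for 6 members (points, replicates 1 to 3 from the left), with mean and SD of 3 libraries beside them. COX7B and ATP5F1A are highest in IDH1mt and NDUFS5 is highest in PCDH, while COX7C, COX7A2 and UQCRB have their lowest mean in C269S.

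By complex, the median log2 fold change in IDH1mt against PCDH was -0.05 for complex I (13 of 36 genes above 0), 0.04 for complexes II (3 of 4) and III (5 of 8), 0.10 for complex IV (10 of 12) and -0.04 for complex V (7 of 17). Without PCDH replicate 3 the median of complex IV was 0.06 and that of complex II turned to -0.02, while complexes I, III and V stayed at -0.05, 0.04 and -0.06. Within complex I the lowest adjusted p after NDUFS5 belonged to NDUFS8, an iron-sulfur subunit (-0.20 ± 0.07, edgeR adjusted p = 0.0556), and to NDUFB5, an accessory membrane subunit (0.20 ± 0.07, adjusted p = 0.0648). These 2 subunits of the same complex thus had opposite signs. In complex II, SDHA had a log2 fold change of -0.11 ± 0.05 (adjusted p = 0.209), and in complex III UQCRH had 0.13 ± 0.07 (adjusted p = 0.258). Libraries did not overlap for 10 members that were higher and 8 that were lower in IDH1mt, where 14.3% and 14.9% of all tested genes had such a separation.

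No member was called in C269S against PCDH, where 1.42% of all tested genes were called, 0.883% higher and 0.533% lower. Libraries did not overlap for 1 member that was higher and 12 that were lower, where 7.62% and 7.57% of all tested genes had such a separation. By edgeR's unadjusted p, 11 members (13.4%) were under 0.05, against 12.0% of all genes, and DESeq2 called none. The median log2 fold change was -0.05, with 27 members above 0 and 55 below, beside -0.01 for all genes. Without PCDH replicate 3 the members' median was -0.0838. NDUFC1, a small complex I subunit, had the lowest adjusted p. It was at 30.3, 36.6 and 31.4 CPM in PCDH and at 25.4, 28.3 and 24.99 CPM in C269S, with no overlap and a log2 fold change of -0.32 ± 0.09 (edgeR adjusted p = 0.0811). NDUFB10, another accessory subunit of complex I, was at 25.8, 25.7 and 25.5 CPM in PCDH and at 18.8, 21.8 and 21.4 CPM in C269S (log2 fold change -0.31 ± 0.10, edgeR adjusted p = 0.121). Its IDH1mt libraries, at 22.8, 23.3 and 19.7 CPM, lay below PCDH and overlapped C269S.

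Nor was any member called between the mutants, in C269S against IDH1mt, where 4.9% of all tested genes were called, 2.29% higher and 2.61% lower. The groups were separate for 1 member that was higher and 11 that were lower, against 11.8% of all tested genes in each direction. Under 0.05 before adjustment were 8 members (9.76%) by edgeR, against 16.7% of all genes. The 4 lowest adjusted p-values, all from edgeR, belonged to small subunits of complexes IV and III: COX7B (log2 fold change -0.23 ± 0.07, adjusted p = 0.0623), UQCRB (-0.21 ± 0.07, 0.0750), COX7C (-0.19 ± 0.06, 0.0751) and COX7A2 (-0.21 ± 0.07, 0.0919). DESeq2 called these 4 lower, with adjusted p from 0.0338 to 0.0444, where it called 7.12% of all genes to which it gave an adjusted p. EdgeR called the same 4 lower, and none higher, without PCDH replicate 3, where 3.7% of all tested genes were lower and 3.55% higher. With the 6 libraries of the comparison alone, edgeR also called COX5B (-0.23, adjusted p = 0.0410), beside 7.65% of all genes tested. The side of the threshold on which these genes fell thus depended on the fit, while their log2 fold changes were close to each other.

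COX7C was at 146, 137 and 144 CPM in IDH1mt and at 120, 131 and 125 CPM in C269S. COX7A2, the widely expressed form of subunit 7A, was at 60.1, 57.6 and 56.1 CPM in IDH1mt and at 48.6, 52.8 and 48.5 CPM in C269S. UQCRB, which binds ubiquinone in complex III, was at 106, 90.5 and 98.1 CPM in IDH1mt and at 83.1, 85.5 and 87.2 CPM in C269S. In each of the 3 the groups did not overlap. The median log2 fold change of complex IV was -0.11 in this comparison, with 10 of 12 genes below 0, against -0.02 for complex I, -0.03 for complex II, -0.05 for complex III and -0.01 for complex V. Because this comparison and that of IDH1mt with PCDH use the same IDH1mt libraries, the opposite medians of complex IV in them (-0.11 and 0.10) are not separate evidence. For complex IV in C269S against PCDH the median was -0.05, and -0.10 without PCDH replicate 3.

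**Figure D3:**
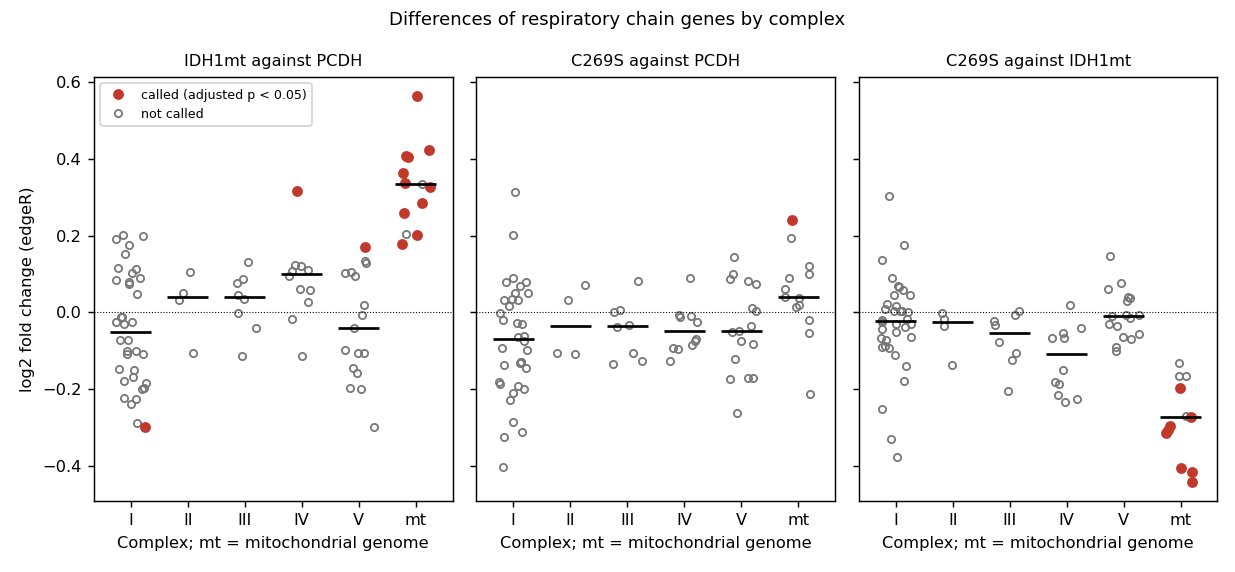
Log2 fold changes from edgeR for each tested subunit by complex, and for the 13 subunits of the mitochondrial genome (mt), in the 3 comparisons; filled points were called, bars are medians, and the very low COX6B2 is counted in the median but not drawn. Nuclear genes spread around 0 in all comparisons, with 3 called in the first, whereas 11 of the 13 mitochondrial genes were called higher in IDH1mt.

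The sequences upstream of the 3 small complex IV genes with the lowest adjusted p in that complex are shown because these genes had like differences between the mutants. They are the bases before both the RefSeq start site and the deposited gene start, from GRCh38.p14, on the strand of the gene and 5′ to 3′. They cover chrX:77899218-77899437 for COX7B, chr5:86617691-86617903 for COX7C and chr6:75250324-75250548 for COX7A2. Capitals mark the longest run of bases that COX7B and COX7C have in common.
COX7B: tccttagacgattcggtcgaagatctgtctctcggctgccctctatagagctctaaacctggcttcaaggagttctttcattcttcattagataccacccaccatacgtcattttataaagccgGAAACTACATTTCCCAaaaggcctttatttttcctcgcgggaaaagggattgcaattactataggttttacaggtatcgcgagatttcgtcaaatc
COX7C: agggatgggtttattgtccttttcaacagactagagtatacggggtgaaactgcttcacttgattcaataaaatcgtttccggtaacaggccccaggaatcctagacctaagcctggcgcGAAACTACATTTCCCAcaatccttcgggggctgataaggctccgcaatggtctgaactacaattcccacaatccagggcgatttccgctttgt
COX7A2: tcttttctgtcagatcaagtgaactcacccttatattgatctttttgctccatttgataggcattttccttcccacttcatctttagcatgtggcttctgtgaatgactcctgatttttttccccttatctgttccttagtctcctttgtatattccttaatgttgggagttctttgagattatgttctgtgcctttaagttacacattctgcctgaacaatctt

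The run GAAACTACATTTCCCA, 16 bases long, starts at base 125 of the COX7B sequence and base 121 of the COX7C sequence, and COX7A2 has no match. On either strand it occurred in 8 of 35116 RefSeq promoters (0.0228%), in windows of 250 bases before the start site. It was found by comparing these sequences, so its presence in both is a description and no test. Of the 90 members, 68 had a RefSeq promoter entry, and these 2 were the only ones with the run. ACGTG and GCGTG, the cores of the hypoxia response element, were found on either strand in 23.5% and 47.1% of the member windows and in 18.5% and 32.2% of all promoters. The motif of the regulator NRF1 was in 4.41% against 1.03%. CCGGAAGT, a motif of the ETS family that includes GABPA, was in 13.2% against 3.42%, and its core CCGGAA, chosen after the sequences were seen and contained in the longer motif, was in 38.2% against 14.5%. COX7B and COX7C each held CCGGAA once and COX7A2 not at all. Only a single window was searched per member, so matches at any other start site of a gene would be missed. A match says nothing of binding.

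Without PCDH replicate 3, more members were called against PCDH. In IDH1mt 3 were then higher (COX7B, ATP5F1A and NDUFB5) and 11 lower, with 9.17% and 8.58% of all tested genes called. The 11 were 8 genes of complex I (NDUFS5, NDUFV1, NDUFS8, NDUFB4, NDUFB2, NDUFB8, NDUFA2 and NDUFA11), COX6A1, ATP5MF and the inhibitor ATP5IF1. Of these, NDUFV1, which binds the NADH in complex I, had a log2 fold change of -0.30 ± 0.06 (edgeR adjusted p = 0.000373). NDUFV1 was at 140 and 141 CPM in PCDH replicates 1 and 2. In PCDH replicate 3, the library left out, it was at 111 CPM, within the IDH1mt libraries (110 to 121). In C269S 8 were lower and none higher, with 2.07% and 3.19% of all genes called: NDUFS5, NDUFV1, NDUFB4, NDUFB2, NDUFC1, NDUFA11, COX6A1 and ATP5IF1. NDUFV1 again had the lowest adjusted p (-0.30 ± 0.06, edgeR adjusted p = 0.00275). Both comparisons share the 2 remaining PCDH libraries, so the genes on both lists are not separate evidence. In PCDH replicate 3 every member listed as lower was below the mean of the other 2 PCDH libraries. The 3 listed as higher were above it. Leaving this library out thus widened these differences by construction.

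The departure of PCDH replicate 3 was unequal among members. COX6A1, a small complex IV subunit, was at 32.8 CPM there against 51.1 and 60.0 in the other PCDH libraries. ATP5ME, a small membrane subunit of ATP synthase, was at 4.57 CPM against 7.82 and 12.0. NDUFA11, a membrane subunit of complex I, was at 9.14 CPM against 17.2 in both others. For ATP5F1A and COX7B, in contrast, this library was the highest of its group. Over the 41 tested members with the shorter coding length, the mean log2 deviation from the average of the 9 libraries was -0.10 in PCDH replicate 3, 0.13 in PCDH replicate 2 and -0.13 in C269S replicate 1. Over the 41 with the longer coding length it was -0.04, 0.05 and -0.05. Short members thus deviated more on average in these 3 libraries. In C269S replicates 2 (-0.01 for short and -0.04 for long members) and 3 (0.01 and 0.03) and IDH1mt replicate 2 (0.01 and -0.02) the longer members deviated more. The part of gene length or RNA quality in the calls was not tested.

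**Figure D4:**
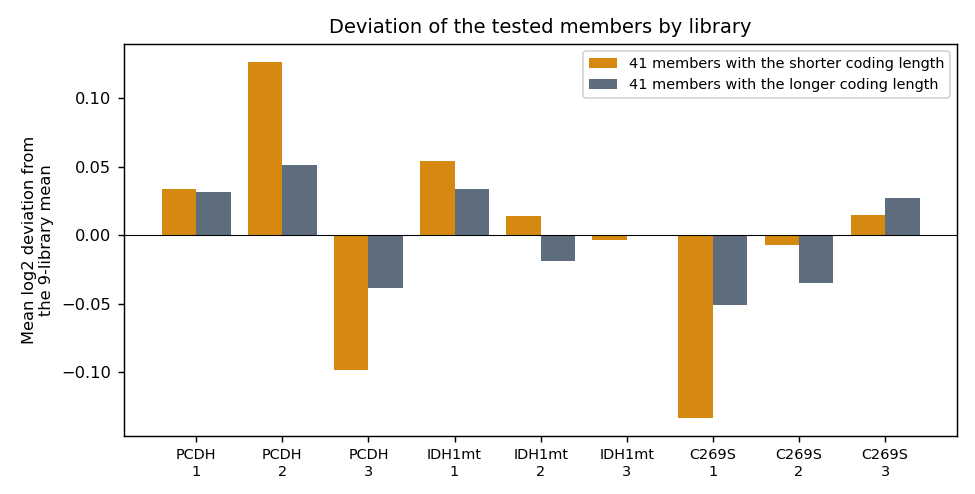
Mean log2 deviation of the tested members from their average over the 9 libraries, for the 41 with shorter and the 41 with longer coding length, in each library. The widest deviations are those of the shorter members in PCDH replicate 3 (-0.10), C269S replicate 1 (-0.13) and PCDH replicate 2 (0.13), while in C269S replicates 2 and 3 and IDH1mt replicate 2 the longer members deviate more.

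The size of difference that these libraries could show was small for most members. The median standard error of a log2 fold change was 0.08 in each of the 3 comparisons. For 73 of the 82 tested members in IDH1mt against PCDH, 72 in C269S against PCDH and 74 in C269S against IDH1mt, the log2 fold change and 2 standard errors to either side stayed within a 1.5-fold difference. The members outside that range in all 3 comparisons were ATP5ME, COX6B2, NDUFA13, NDUFA4L2, NDUFA7 and NDUFV2.

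Among the tissue and hypoxia forms, the widely expressed gene held nearly all of the family FPKM in every group. COX4I2, the form of subunit 4 raised under low oxygen and typical of lung, had 1, 1 and 2 counts over the 3 libraries of PCDH, IDH1mt and C269S. That is 0.0152, 0.0147 and 0.0328 CPM in the pooled counts, below the limit of 3 counts in each group (0.0457, 0.0442 and 0.0491), so no difference was detectable at this depth. COX4I1, its widely expressed partner, was at 192, 212 and 195 CPM in PCDH, at 221, 215 and 217 in IDH1mt and at 187, 184 and 217 in C269S. C269S replicate 3 overlapped the IDH1mt libraries, and the log2 fold change of C269S against IDH1mt was -0.15 ± 0.06 (edgeR adjusted p = 0.196).

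NDUFA4L2, the paralog of the complex IV subunit NDUFA4, had 26, 21 and 15 counts in the PCDH libraries. It had 10, 25 and 29 counts in IDH1mt and 14, 4 and 18 in C269S. The 3 groups overlapped. Its share of the summed FPKM of NDUFA4 and NDUFA4L2 was 1.203 ± 0.417% (SD, n = 3) in PCDH, 1.24 ± 0.695% in IDH1mt and 0.747 ± 0.427% in C269S, with exact two-sided permutation p-values from 0.4 to 1, where 3 against 3 libraries cannot go below 0.1. NDUFA4 itself lay between 95.6 and 102 CPM in all 9 libraries. Over the 9 libraries the genes whose log2 CPM followed NDUFA4L2 most closely were PCED1B, LRRC23, SMG6, IPPK and ZFYVE21, with Pearson's r from 0.96 down to 0.88. At 4 to 29 counts per library this likeness is a description of counting-limited values.

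The muscle form COX7A1 had 2, 6 and 6 counts in PCDH, 5, 8 and 11 in IDH1mt, and 8, 8 and 6 in C269S. Its share of the summed FPKM of COX7A1 and COX7A2 was 0.737 ± 0.342% (SD, n = 3) in PCDH, 1.24 ± 0.667% in IDH1mt and 1.37 ± 0.261% in C269S. C269S did not overlap PCDH, at the smallest exact two-sided permutation p the design allows (0.1). In pooled counts the level was 0.213 CPM in PCDH (95% Poisson interval 0.117 to 0.358) and 0.360 in C269S (0.226 to 0.546), and these intervals, which cover counting error only, overlapped.

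The muscle form COX6A2 and the testis form COX7B2 had no count in any library, which allows up to 0.0491 CPM in a group. COX8C, a testis form, had 2, 0 and 1 counts per group. Of 9 muscle markers, MYH7 was at 0 in all libraries and their sum was at most 1.69 CPM. Of 6 testis markers, PRM1 and PRM2 were at 0, and DAZL, at 7.34 to 15.4 CPM, made up nearly all of the sum. COX6B2, a testis form of subunit 6B, had 27, 51 and 61 counts per group, but all of its coding bases also belong to another annotated gene, AC020922.1, on the same strand. Its single libraries ranged from 1 to 18 counts in PCDH, 4 to 25 in IDH1mt and 11 to 31 in C269S, and no call was made.

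**Figure D5:**
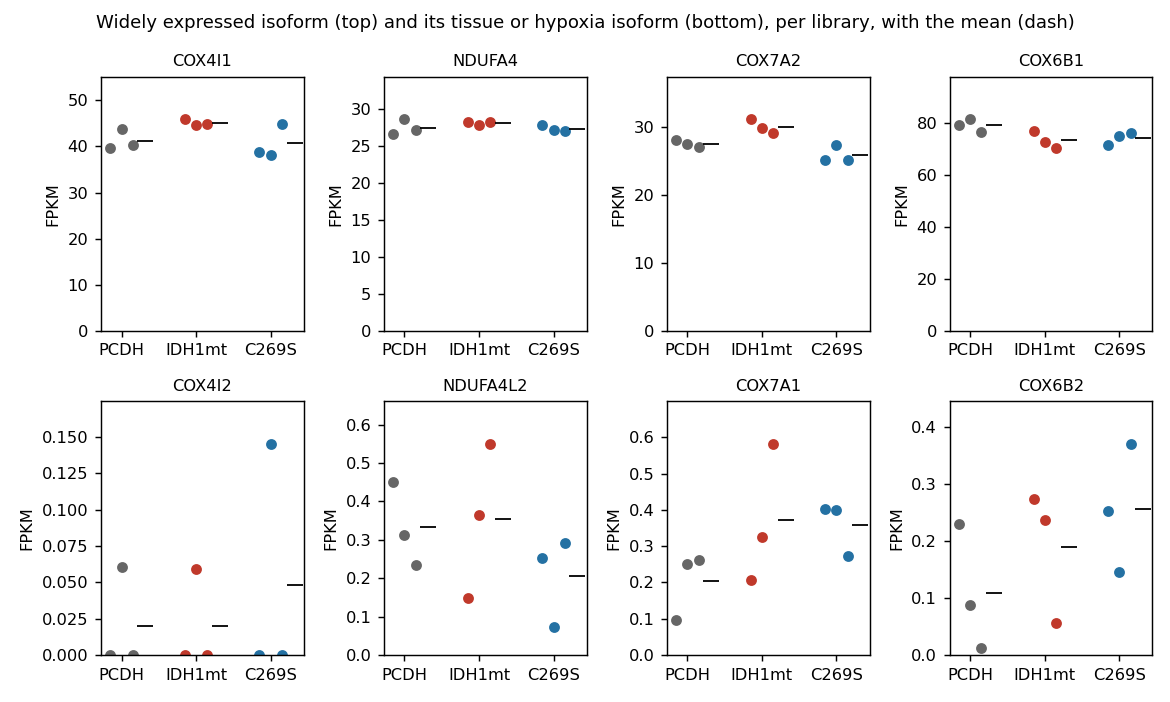
FPKM in each library for 4 widely expressed subunits (top) and their tissue or hypoxia forms (bottom), with the mean as a dash; each panel has its own axis from 0. The upper genes lie above 20 FPKM in every library, the lower ones stay under 1 FPKM and overlap between most groups.

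The 3 genes of the membrane ring subunit c of ATP synthase, which encode the same mature protein, were all expressed. ATP5MC2 held 43.3 ± 0.936% (SD, n = 3), ATP5MC1 32.9 ± 1.13% and ATP5MC3 23.8 ± 0.453% of their summed FPKM in PCDH. In IDH1mt these shares were 42.6 ± 2.97%, 32.8 ± 2.80% and 24.6 ± 1.08%, and in C269S 43.8 ± 0.696%, 31.3 ± 0.278% and 24.9 ± 0.939%. On this scale the order was the same in the 3 groups, with lengths of 3991 bases for ATP5MC2, 2615 for ATP5MC1 and 6780 for ATP5MC3. By CPM, which does not divide by length, ATP5MC3 lay above ATP5MC1. Their means were 98.7 and 52.6 in PCDH, 92.3 and 47.5 in IDH1mt, and 96.2 and 46.6 in C269S. Of the 9 tests of shares the lowest exact two-sided permutation p was 0.1, for ATP5MC1 in C269S against PCDH.

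The subunits made from the mitochondrial genome gave another picture. All 13 were tested, though nuclear copies of some may share their reads. In IDH1mt against PCDH 11 were called higher and none lower, where 7.18% of all tested genes were higher and 6.9% lower. Only MT-ND1 was called higher in C269S against PCDH, where 0.883% of all tested genes were. In C269S against IDH1mt 8 were lower, where 2.61% of all tested genes were. This comparison and that of IDH1mt with PCDH use the same IDH1mt libraries, so the 2 are not separate evidence. No gene of this list was called in C269S against PCDH when any of PCDH replicates 1 and 2 and C269S replicates 1 and 3 was left out, with the 6 libraries alone or with limma on FPKM, and 3 were called without PCDH replicate 3. When a library was left out, 8 to 12 were higher in IDH1mt and 5 to 11 lower in C269S against IDH1mt, the 5 without IDH1mt replicate 1 or 3. With limma on FPKM 8 were higher and 5 lower in these comparisons. MT-CYB, the cytochrome b of complex III, had the lowest adjusted p among them in IDH1mt, with a log2 fold change of 0.56 ± 0.06 (edgeR adjusted p = 8.56e-09). Within complex III the summed CPM of the 8 nuclear genes in the naming rule was 821 ± 0.884 in PCDH, 848 ± 35.5 in IDH1mt and 805 ± 22.6 in C269S (SD, n = 3). The sum leaves out the nuclear subunit CYC1, at 139 ± 15.5, 142 ± 5.40 and 144 ± 15.9 CPM in these groups. The ratio of MT-CYB to this sum lay between 0.576 and 0.668 in PCDH, between 0.901 and 0.914 in IDH1mt and between 0.689 and 0.717 in C269S. No library of 1 group overlapped another in this ratio. Whether this holds with CYC1 in the sum was not tested.

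In complex I the ratio of summed mitochondrial to summed nuclear CPM was 5.64 ± 0.819 in PCDH, 7.04 ± 0.221 in IDH1mt and 6.25 ± 0.278 in C269S (SD, n = 3). In complex IV it was 12.6 ± 1.93, 14.8 ± 0.581 and 13.3 ± 0.770, and in complex V 0.717 ± 0.0469, 0.791 ± 0.0184 and 0.698 ± 0.0433. IDH1mt had the highest mean ratio in each. In complex I all IDH1mt libraries (6.82 to 7.26) lay above those of PCDH (4.93 to 6.54) and C269S (5.999 to 6.55). In complex IV IDH1mt (14.3 to 15.4) and PCDH (10.5 to 14.4) overlapped. The selection of RNA before sequencing is not given in the sources used here, and how the short tails of mitochondrial transcripts bear on these ratios was not tested.

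The assembly factors, which build the complexes but are not part of them, were counted on a list of 48 symbols, of which 47 were tested. In IDH1mt against PCDH 5 were lower and none higher, where 6.9% of all tested genes were lower and 7.18% higher. They were NDUFAF3 and ACAD9 for complex I, COA3 and COA7 for complex IV, and BCS1L, which inserts the iron-sulfur protein of complex III. NDUFAF3 fell from 52.2 to 37.5 CPM on average, a log2 fold change of -0.48 ± 0.08 (edgeR adjusted p = 2.63e-05). The list's median was -0.13. None was called in C269S against PCDH. In C269S against IDH1mt CMC1 was lower (-0.37 ± 0.11, adjusted p = 0.0433) and COX14 higher (0.44 ± 0.12, adjusted p = 0.0239), both factors of complex IV. That is 1 of 47 in each direction, where 2.61% of all tested genes were lower and 2.29% higher. The naming rule leaves out NDUFAB1, a subunit of complex I, CYC1, a subunit of complex III, and CYCS, the carrier cytochrome c. These were not called in any comparison.

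Of 9 transcriptional regulators of respiratory genes, only PPARGC1A, a coactivator of mitochondrial biogenesis, was called. It was higher in C269S than in PCDH, at 12.7 against 8.55 CPM (1.48-fold, edgeR adjusted p = 0.0405). Among all tested genes 0.883% were called higher in this comparison. NRF1, GABPA, TFAM and the other 5 were not called in any comparison. The 11 genes for general mitochondrial content, among them citrate synthase CS and the pore protein VDAC1, were likewise not called in any comparison.

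Of 8 genes that link low oxygen to respiration, 4 were higher in IDH1mt than in PCDH and 3 of these were lower in C269S than in IDH1mt. Among all tested genes 7.18% were called higher in the first comparison and 2.61% lower in the second. MIR210HG, the host of a microRNA that lowers iron-sulfur cluster assembly, was at 11.5 CPM on average in PCDH, 28.9 in IDH1mt and 11.3 in C269S (2.51-fold in IDH1mt against PCDH, edgeR adjusted p = 7.56e-09). The mitophagy receptors BNIP3L (1.41-fold) and BNIP3 (1.21-fold) and the kinase PDK1 (1.28-fold), which limits pyruvate entry into mitochondria, were also higher. LONP1, ISCU, HIGD1A and CHCHD2 were not called. Beside these, the hypoxia forms of the chain itself, COX4I2 and NDUFA4L2, had the low and overlapping counts given above.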

How the data were processed

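Whole-number read counts per gene were deposited by the authors for 9 libraries, and the submitters' processing notes name HISAT2 2.0.5 and featureCounts 1.5.0-p3 on GRCh38. Deposited FPKM values, in which the authors divided by length and by library total, were used for levels between genes and for isoform shares. By their names, the Control columns were taken as PCDH, the mt columns as IDH1mt and the CS columns as C269S. Strand setting, handling of reads with several matches and RNA selection are not stated in the sources used.

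Counts were filtered with filterByExpr (16874 genes left), scaled by TMM and fitted in 1 robust quasi-likelihood model with a mean per group (edgeR 4.0.16, R 4.3.3). P-values were adjusted by Benjamini and Hochberg over all genes tested, and genes with an adjusted p under 0.05 count as called. The SE of a log2 fold change was derived from the F statistic. Shares were tested by exact two-sided permutation over libraries. Poisson intervals (95%) and the limit of 3 counts cover counting error only. Code was checked on simulated counts. Promoters came from RefSeq, GRCh38.p14, and coding overlaps from GENCODE 29.

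Alternatives were other scalings and filters, the 6 libraries of a comparison, the replicate number as a block, DESeq2 1.42.0, limma 3.58.1 on log2 of FPKM plus 1 or 0.1, a threshold of 0.01, the mitochondrial genome left out, and each library left out. Named in full were members called without overlap, isoform families, the highest and lowest FPKM and the lowest adjusted p of each complex. Other members were named after their values were seen. The members and lists were chosen with earlier results of these data known.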

Additional observations from a re-analysis of the deposited data

How the results depend on the processing

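Counts of members called changed with the processing, and no named member that was called changed sign. In IDH1mt against PCDH the 2 higher members became 1 with library size as the only scaling (15.5% of all genes called in either direction), 1 with no filter on low counts (6.83%), 4 with DESeq2 (14.99%), 1 at an adjusted p under 0.01 (7.76%) and 1 to 3 when a library was left out (9.33 to 17.8%). The 1 lower member became 7 with library size alone, 4 with no filter and 0 to 11 when a library was left out, the 11 without PCDH replicate 3. Library size alone also moved the median of all genes to -0.06 on the log2 scale, so its split of 1 higher and 7 lower is relative to that. In C269S against PCDH 0 to 8 members were lower when a library was left out (0.590 to 5.26% of all genes called), the 8 without PCDH replicate 3, and the median log2 fold change ranged from -0.0838 to 0.0102. In C269S against IDH1mt 1 member was lower with a filter of 1 CPM in 3 libraries (5.86%), 5 with 6 libraries (7.65%), 4 with DESeq2 (7.12%), 1 with limma on log2(FPKM + 1) (2.63%), 1 on log2(FPKM + 0.1) (2.64%), and 0 to 4 when a library was left out (2.62 to 7.24%). Fewer libraries or genes entered some of these fits by construction, and otherwise the cause was not tested. With the replicate number as a block, 2 members were higher and 1 lower in IDH1mt against PCDH and 0 in the other comparisons, as without it, while 1987, 172 and 605 of all genes were called in the 3 comparisons against 2375, 239 and 827. Same-numbered libraries of different groups deviated with correlations from -0.195 to 0.081, and differently numbered ones from -0.094 to 0.142. No pairing by number was thus seen, though these values cannot exclude one. Isoform shares were also taken with 0.1 FPKM added, on raw counts, and without each library of the group. A group's mean share stayed within its SD in 123 of these cases and moved further in 27. Leaving out 1 of 3 libraries cannot move a mean by more than the SD of the 3. Those cases were thus bound to stay, and all 27 moves came from the added 0.1 FPKM or from raw counts. Depth limits the forms with under 30 counts per library.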
